A study of Mus musculus with 6 samples.

Results

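The SMOC proteins and the small leucine-rich proteoglycans are proteins that cells secrete into the extracellular matrix, and 9 of their genes are described here: Smoc1 and Smoc2, their relatives Sparc and Sparcl1, and the proteoglycan genes Fmod, Prelp, Bgn, Dcn and Lum. They are 9 of the 34745 genes counted, found by gene name in the count files of all 6 libraries, and they were chosen from the values of the comparison described below, so their differences are given as a description without p-values, and the count of them past the threshold is printed only beside the share of all genes. RNA was sequenced from 889 cells, a murine lung cancer line that the labels place in mouse lung of strain C57BL/6, in 3 libraries labelled sg-con and 3 labelled sg-kiaa1522. Cells of both groups carried a lentiviral CRISPR vector with Cas9, with an sgRNA against EGFP in sg-con and against kiaa1522 in sg-kiaa1522, and had been selected with puromycin or by sorting. Which of the kiaa1522 sgRNAs the sequenced cells carried is not given in the sources used here. The comparison asked which genes differ in tumour cells when kiaa1522 is targeted. The labels do not say whether the 3 libraries of a group came from separate cultures, so p-values measure the spread between these libraries only, which may be technical.

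SMOC proteins are matricellular proteins, which signal to cells rather than build fibres, and they share with SPARC and the SPARC-like protein (hevin) a calcium-binding extracellular domain. SMOC proteins act on BMP and other growth factor signals near basement membranes, and SPARC binds collagen. Small leucine-rich proteoglycans have a curved core of leucine-rich repeats that binds collagen fibrils, and many carry chondroitin, dermatan or keratan sulfate chains. In lung, decorin and lumican are largely products of fibroblasts.

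The libraries held between 12220001 counts (sg-kiaa1522 library 1) and 18609376 counts (sg-kiaa1522 library 2), and 3 counts, taken as the floor, were worth 0.162 to 0.247 CPM (counts scaled to a fixed library total, with TMM factors). The mRNA of the targeted gene was not lower in the libraries labelled for it: kiaa1522, listed as C77080, had 127, 130 and 124 CPM in the sg-con libraries and 210, 203 and 216 CPM in the libraries labelled sg-kiaa1522, its log2 fold change being 0.73 (standard error 0.0566, edgeR quasi-likelihood adjusted p = 9.1e-05). An allele edited by Cas9 need not have less mRNA, so this level does not check the labels in either direction. The study reports lower scores of TNFα-NFκB gene sets in the samples labelled as depleted. It also reports less phosphorylated p65 on immunoblots of cells with KIAA1522 down-regulated. Whether labels were exchanged was not tested. All directions below are those of the libraries labelled sg-kiaa1522 relative to sg-con. Of 9 epithelial markers, 7 were above the floor in at least 1 library, among them the keratins Krt8 and Krt18, whereas Epcam was at 0 in all 6 libraries. Their summed level was 3870 to 4590 CPM in sg-con and 3260 to 3510 CPM in sg-kiaa1522, most of it keratins. The E-cadherin gene Cdh1 fell from 56.4 ± 4.95 to 20.6 ± 1.15 CPM (SD, n = 3 each, adjusted p = 5.1e-05 from edgeR), and Napsa, the gene of the lung adenocarcinoma marker napsin A, had 19, 18 and 21 counts in sg-con and 1, 5 and 3 in sg-kiaa1522. Nkx2-1 of the same list varied within groups and overlapped, with 970, 1096 and 227 counts against 132, 174 and 671 (adjusted p = 0.21 from edgeR). Sftpc varied too, with 110, 20 and 45 counts in sg-con and 8, 15 and 25 in sg-kiaa1522.

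Smoc1 and Smoc2 exchanged places. Smoc2 was the SMOC mRNA of the sg-con libraries and Smoc1 that of the sg-kiaa1522 libraries, and no library held a comparable amount of both. Smoc1 lies on chromosome 12 (GRCm38, chr12:81026808-81186414, plus strand) and Smoc2 on chromosome 17 (chr17:14279506-14404790, plus strand). Their transcripts are related enough that the question of shared reads arises, and the longest run of identical bases between them was 33 bases long. It lies in the coding sequence, across exons 10 and 11 of the 13 exons of both transcripts. The windows of 81 coding bases around it, which agree at 60 positions, are shown because they are where a fragment could least tell the genes apart, with the identical run in capitals (GENCODE M21, Smoc1-202 from chr12:81170272-81179539 and Smoc2-204 from chr17:14397604-14399431, intron left out):
Smoc1: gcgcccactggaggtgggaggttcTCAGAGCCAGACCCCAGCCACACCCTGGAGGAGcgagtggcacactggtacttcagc
Smoc2: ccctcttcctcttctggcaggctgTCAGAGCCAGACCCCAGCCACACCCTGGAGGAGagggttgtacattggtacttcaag
The authors counted only uniquely mapped fragments.

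Smoc1 had 3, 4 and 2 counts in the sg-con libraries and 235, 302 and 298 counts in the sg-kiaa1522 libraries. Its level was 0.169 ± 0.0480 CPM (SD, n = 3) in sg-con, at or near the floor of 3 counts, and 17.8 ± 1.46 CPM (SD, n = 3) in sg-kiaa1522. The ratio of the summed counts, scaled to library size, was 103, with a 95% counting interval of 54 to 226, and the fitted log2 fold change was 6.64 (standard error 0.313). Only 9 counts stand behind the sg-con level, which sets the width of that interval. Among the 10046 genes tested, this was the third largest rise on the log2 scale.

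Smoc2 went the other way, from 447, 480 and 452 counts in sg-con to 32, 29 and 22 counts in sg-kiaa1522. The sg-con level was 26.2 ± 0.785 CPM (SD, n = 3), and the sg-kiaa1522 level was 1.84 ± 0.706 CPM (SD, n = 3). This is a ratio of 15 between sg-con and sg-kiaa1522 (95% counting interval 12 to 18.9), or a log2 fold change of -3.87 (standard error 0.218), the fourth largest fall. The groups of both SMOC genes did not overlap. Intervals and floors cover counting error only.

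Smoc1 made up 0.667%, 0.826% and 0.441% of the SMOC counts in the sg-con libraries (95% Wilson intervals 0.227% to 1.94%, 0.322% to 2.11% and 0.121% to 1.59%). In the sg-kiaa1522 libraries, it made up 88.0%, 91.2% and 93.1% (intervals 83.6% to 91.4%, 87.7% to 93.8% and 89.8% to 95.4%). The direction of the sum of Smoc1 and Smoc2 depended on the scale. The scale per length, TPM, divides by the merged exons of all annotated transcripts of a gene. These cover 3496 bases for Smoc1 (3 transcripts) and 6951 for Smoc2 (7 transcripts). Which transcripts the cells used was not tested, so the direction in TPM holds for these lengths only. In CPM, the sum was 25.8, 26.1 and 27.2 in sg-con and lower, at 22.0, 18.1 and 18.8, in sg-kiaa1522. Per length, in TPM, it was 9.84, 9.58 and 9.98 in sg-con and higher, at 16.1, 13.3 and 14.5, in sg-kiaa1522. On the TPM scale, Smoc1 made up 0.872% to 1.63% of the sum in sg-con and 93.6% to 96.4% in sg-kiaa1522. In bulk RNA, a change in the number of cells that express a gene and a change in the RNA per cell cannot be told apart.

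**Figure D1:**
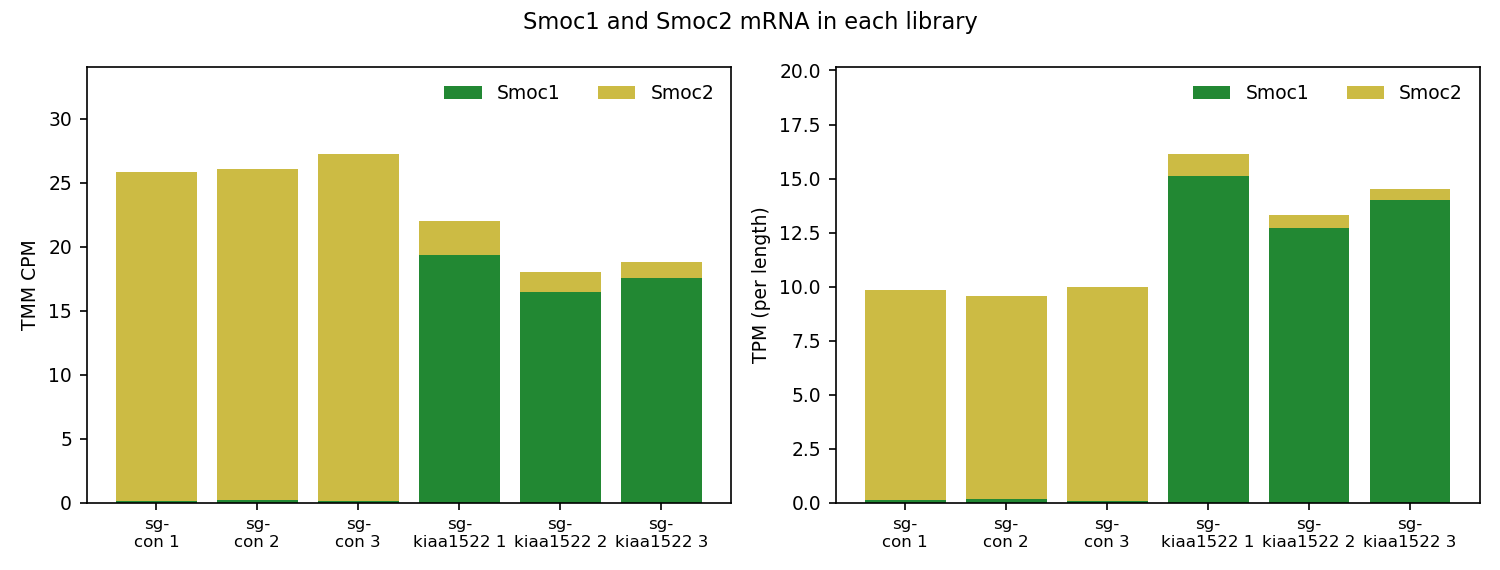
Stacked bars give Smoc1 (green) and Smoc2 (yellow) in each of the 6 libraries, as TMM CPM on the left and as TPM on the right. TPM divides by the merged exon length of all annotated transcripts. Smoc2 makes up nearly all of the sum in sg-con and Smoc1 most of it in sg-kiaa1522 on both scales, while the sum itself is lower in sg-kiaa1522 in CPM (18.1 to 22 against 25.8 to 27.2) and higher in TPM (13.3 to 16.1 against 9.58 to 9.98).

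Sparc, the founding gene of the family (chr11:55394500-55423183, minus strand), was by far the most abundant of the 9 and had similar levels in both groups. It had 703, 741 and 746 CPM in the sg-con libraries and 732, 736 and 679 CPM in the sg-kiaa1522 libraries. The groups overlapped, and the log2 fold change was -0.03 (standard error 0.0583), which lay between -0.06 and 0.01 under the 12 alternatives and so has no stable sign. Sparcl1 (chr5:104079111-104113733, minus strand) was scarce, with 10, 7 and 8 counts in sg-con and 9, 1 and 3 counts in sg-kiaa1522. Its groups overlapped too, and its ratio between sg-con and sg-kiaa1522 of 1.73 had a counting interval of 0.854 to 3.69. It rests on sg-kiaa1522 library 1, which held 9 of the 13 counts of its group: without that library, the ratio was 4.19 (counting interval 1.45 to 16.6), from 25 and 4 counts, and without sg-kiaa1522 library 2 it was 1.15 (0.558 to 2.52).

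Among the proteoglycans, Fmod and Prelp were both lower in sg-kiaa1522. Fmod encodes fibromodulin, which binds collagen fibrils and carries keratan sulfate, and PRELP links collagen to heparan sulfate at basement membranes. Fmod had 216, 221 and 251 counts in the sg-con libraries and 16, 3 and 7 counts in the sg-kiaa1522 libraries. Its level was 13.1 ± 1.69 CPM (SD, n = 3) against 0.631 ± 0.608 CPM (SD, n = 3), with sg-kiaa1522 library 2 at the floor of 3 counts. The ratio between sg-con and sg-kiaa1522 was 23.9 (95% counting interval 16.1 to 36.8) and the log2 fold change -4.53 (standard error 0.512), the third largest fall. This size rests in part on sg-kiaa1522 library 1, which held 16 of the 26 counts of its group: without it, the log2 fold change was -5.50.

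Prelp had 212, 203 and 240 counts in sg-con and 44, 31 and 33 counts in sg-kiaa1522, or 12.5 ± 1.75 CPM against 2.42 ± 1.05 CPM (SD, n = 3 each). All 3 sg-kiaa1522 libraries were below all 3 sg-con libraries. The ratio was 5.47 (95% counting interval 4.45 to 6.77) and the log2 fold change -2.41 (standard error 0.271), the 25th largest fall. Prelp shares 350 of its exon bases (9.68%) with Gm15851 on the other strand, which had 0 counts in every library. Whether the counting used strand is not given in the sources used here, so reads of that stretch could not be assigned to a strand.

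Bgn encodes biglycan, a proteoglycan with chondroitin or dermatan sulfate chains, and lies on chrX:73483602-73495933 (plus strand). It had 83, 92 and 106 counts in sg-con and 37, 50 and 50 counts in sg-kiaa1522, which is 5.36 ± 0.870 CPM against 2.91 ± 0.164 CPM (SD, n = 3 each). The longest run of identical bases between transcripts of Bgn and Dcn was 40 bases, and Dcn was near 0 counts. The groups of Bgn did not overlap, but the 418 counts in all left Bgn under the filter of more than 500 counts. Fitted without that filter, its log2 fold change was -0.88 (standard error 0.189), and the ratio was 1.85 (95% counting interval 1.5 to 2.29). Dcn (chr10:97479609-97518143) and Lum (chr10:97565128-97572703), neighbours on the plus strand 47.0 kb apart, were at or under 3 counts in every library. Dcn had 2, 0 and 1 counts in sg-con and 0, 1 and 0 in sg-kiaa1522, and Lum had 1 count in sg-con library 1 and none elsewhere, so no fold is given.

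**Figure D2:**
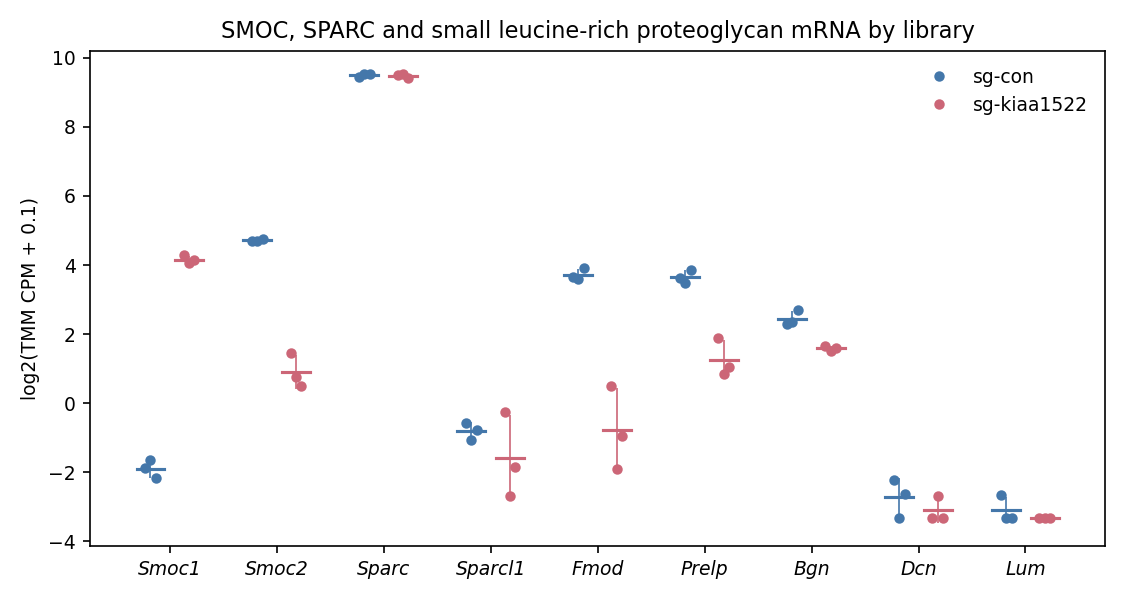
Points give log2(TMM CPM + 0.1) of each of the 9 genes in the 3 sg-con (blue) and 3 sg-kiaa1522 (red) libraries, with the mean as a horizontal line and the SD as a vertical line. Smoc1 is the one gene whose sg-kiaa1522 libraries lie wholly above sg-con, Smoc2, Fmod, Prelp and Bgn lie wholly below, and the groups of Sparc, Sparcl1, Dcn and Lum overlap.

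Of the 9 genes, 5 passed the filter on low counts and 4 (Sparcl1, Dcn, Bgn and Lum) did not. With 0.05 as the limit on the adjusted p and 1 as the least size of the log2 fold change, 3 of the 5 were lower and 1 was higher. Over all 10046 tested genes, 4.34% were called lower and 2.74% higher by the same rule. Fmod lost its call when any 1 sg-con library was left out, since it was then under the filter. Its ratio of summed counts between sg-con and sg-kiaa1522 was 24.5, 25 and 22.2 without sg-con library 1, 2 and 3, in that order. Without the fold threshold, the counts of the 9 genes were the same, and 26.3% of all tested genes were lower and 26.3% higher. Counting groups that do not overlap, 4 of the 9 genes were lower and 1 was higher, against 31.1% and 30.6% of the tested genes. The genes were chosen on this contrast, so nothing is read from these shares.

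Levels of different genes were compared per length, as TPM (transcripts per fixed total) computed from the counts and exon lengths. In sg-con, Sparc was at 494 ± 5.32 TPM (SD, n = 3). Fmod (10.2 ± 1.24 TPM), Smoc2 (9.68 ± 0.235 TPM) and Prelp (8.87 ± 1.22 TPM) followed, and on this scale these 3 did not differ beyond their spread. In CPM, Smoc2 was the highest of the 3, at 26.2 against 13.1 for Fmod and 12.5 for Prelp. Bgn was at 2.25 ± 0.339 TPM, Sparcl1 at 0.418 ± 0.0945 TPM and Smoc1 at 0.124 ± 0.0349 TPM. In sg-kiaa1522, Sparc was again first, at 517 ± 15.6 TPM, and Smoc1 was second, at 13.9 ± 1.19 TPM. Prelp (1.26 to 2.73 TPM) and Bgn (1.21 to 1.36 TPM) overlapped, as did Smoc2 (0.519 to 1.03 TPM), Fmod (0.134 to 1.09 TPM) and Sparcl1 (0.0501 to 0.688 TPM). By these lengths, the order thus changed from Fmod, Smoc2 and Prelp behind Sparc to Smoc1 alone behind it.

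The spread between libraries of 1 group was not part of the stated rule for choosing the genes. The results of the contrast were known, however, and they depend on that spread. The values below are therefore a description only. The coefficient of variation of Smoc2 in sg-con was 3.0%, against a median of 9.45% for the 4357 tested genes within 2-fold of its level. Fmod and Prelp were above their medians in sg-con, at 12.9% against 10.7% and 14.0% against 10.8%. In sg-kiaa1522, the coefficient of variation was 38.4% for Smoc2, 43.4% for Prelp and 96.2% for Fmod, at low counts, and 8.2% for Smoc1. Tested genes at the low sg-kiaa1522 levels of Smoc2, Prelp and Fmod passed the filter mainly through sg-con, so no comparison with them is made. Within sg-kiaa1522, library 1 was the highest in CPM for Smoc2, Fmod, Prelp, Bgn and Sparcl1, and also for Smoc1. That library was the shallowest of the 6, and it was the highest of its group for 50.2% of the 436 genes called lower, for 28.7% of the 275 called higher and for 39.4% of all tested genes. Of the genes called higher, it was the lowest of its group for 43.6%, unlike for Smoc1. Its part in these values was not tested.

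Fmod and Prelp are neighbours on chromosome 1, on opposite strands: Prelp at chr1:133910304-133921414 (minus strand) and Fmod at chr1:134037254-134048277 (plus strand), with 116 kb between them. Because both were lower, the values of other genes along this stretch are given. Beyond Prelp, the nearest tested gene was Atp2b4, a plasma membrane calcium pump, 109 kb away. It had 22.0, 20.4 and 19.4 CPM in sg-con and 6.18, 3.44 and 2.24 CPM in sg-kiaa1522, so sg-kiaa1522 library 1 was again the highest of its group. The log2 fold change of Atp2b4 was -2.42 (standard error 0.297, edgeR quasi-likelihood adjusted p = 0.00055). On the other side of Fmod, 26.9 kb away, lies Btg2, a growth-restraining gene, which fell by 0.45 on the log2 scale (adjusted p = 0.0026 from edgeR). Of the 11 other tested genes within 500 kb of Fmod that are not among the 9, Atp2b4 was the one past the fold threshold. By the adjusted p alone, 4 were lower and 1 was higher, beside 26.3% in each direction over all tested genes. With the fold threshold, 4.34% of all tested genes were lower and 2.74% higher. The median log2 fold change of the 11 was 0.20.

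**Figure D3:**
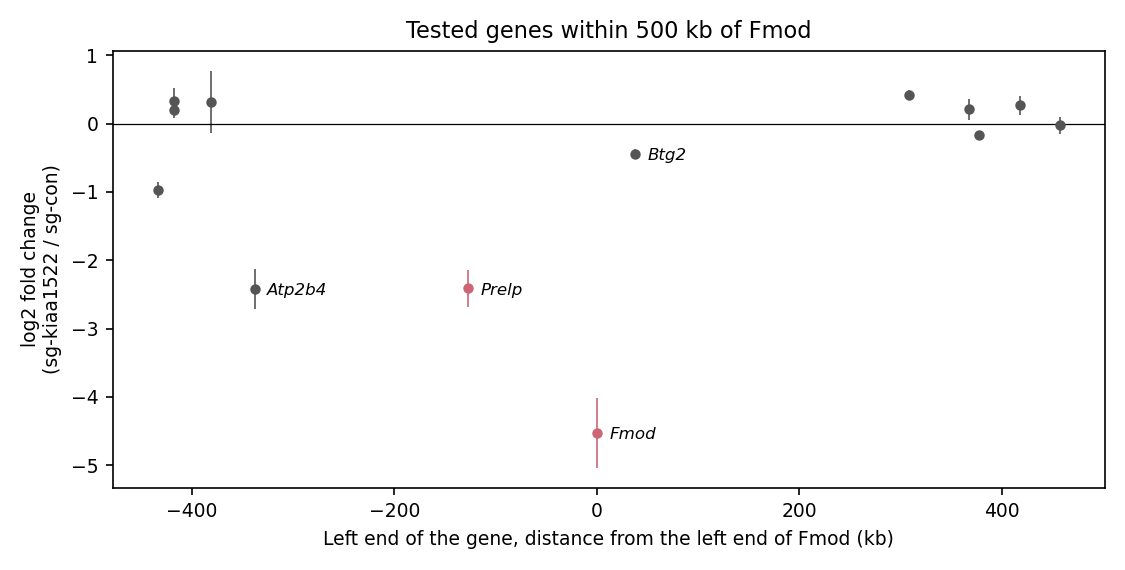
Points give the log2 fold change of each tested gene within 500 kb of Fmod (vertical bars, standard error) by its distance from Fmod in kb, with Fmod and Prelp in red. Fmod, Prelp and Atp2b4 lie at -4.53, -2.41 and -2.42, and the other genes at smaller changes in either direction.

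No protein-coding gene is annotated between Prelp and Fmod. Optc, the opticin gene of the same proteoglycan family (minus strand), lies 2.30 kb from Prelp on its far side. It had 2 counts in sg-con library 3 and none in the others. The start regions of Fmod and Prelp are shown because both genes were lower and are neighbours (RefSeq, GRCm38.p6, 250 bases before to 50 after the start, each in the direction of its gene, Fmod from chr1:134037004-134037303 on the plus strand and Prelp from chr1:133921352-133921651 on the minus strand), with matches to the searched motifs in capitals:
Fmod: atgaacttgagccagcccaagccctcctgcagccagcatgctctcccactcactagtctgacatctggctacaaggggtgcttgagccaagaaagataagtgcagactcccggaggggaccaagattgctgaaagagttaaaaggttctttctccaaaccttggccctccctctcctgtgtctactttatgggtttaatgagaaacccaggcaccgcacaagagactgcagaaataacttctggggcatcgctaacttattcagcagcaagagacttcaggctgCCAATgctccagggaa
Prelp: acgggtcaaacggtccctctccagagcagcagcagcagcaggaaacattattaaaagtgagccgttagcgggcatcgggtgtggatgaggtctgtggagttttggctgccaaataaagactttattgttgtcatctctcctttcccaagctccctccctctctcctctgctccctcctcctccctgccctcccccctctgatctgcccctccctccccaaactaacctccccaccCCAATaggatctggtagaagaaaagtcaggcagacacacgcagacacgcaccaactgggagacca
The motifs searched on both strands were the TATA box as the letters TATAAA, the AP-1 motif as TGANTCA, the GC box as GGGCGG, the CCAAT box by the letters of its name, and the NFκB consensus. Both regions held 1 match to CCAAT, after the start in Fmod and before it in Prelp, and none to the others. CCAAT occurred in 37.4% of 32851 RefSeq start regions of the same length, TATAAA in 13.6%, TGANTCA in 7.81%, GGGCGG in 35.7% and the NFκB consensus in 8.46%. Fmod had 3 CpG and Prelp 7, where the median region had 7. A match is a description of letters and not of a bound site. Start regions were found in the table for 4 of the 9 genes: Sparc, Fmod, Bgn and Prelp.

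The SMOC genes stood in different surroundings. Of 8 tested genes within 500 kb of Smoc1, none passed the fold threshold in edgeR's quasi-likelihood test. Where 26.3% of all tested genes passed the adjusted p alone in each direction, 1 of these 8 was lower and 2 were higher. The nearest were the splicing factor gene Srsf5, whose log2 fold change was 0.24 (adjusted p = 0.020 from edgeR, not passed with the replicate block or in 4 of the 6 fits without 1 library), and Gm20498, whose log2 fold change was -0.12 (adjusted p = 0.57 from edgeR). Smoc2 had 2 tested genes within that distance. Thbs2, which encodes the matricellular protein thrombospondin 2 and lies 261 kb downstream, rose from 1.43 ± 0.384 CPM to 14.5 ± 3.46 CPM (SD, n = 3 each), at a log2 fold change of 3.32 (standard error 0.271, edgeR quasi-likelihood adjusted p = 9.5e-05). Smoc2 and Thbs2 thus differed in direction. Mllt4, the gene of the junction protein afadin, had a log2 fold change of 0.92 (adjusted p = 0.028 from edgeR), which did not pass without sg-con library 2 or 3 or without sg-kiaa1522 library 2 or 3.

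Beside Sparc, the cadherin gene Fat2 fell by 0.78 and the copper chaperone gene Atox1 by 0.77 on the log2 scale (adjusted p = 8.0e-04 and 0.005 from edgeR). Beside Sparcl1, Spp1, the osteopontin gene, rose by 0.91 (adjusted p = 0.00012), and Nudt9 had a log2 fold change of -0.18 (adjusted p = 0.041, which 9 of the 12 alternatives did not pass). Haus7, beside Bgn, fell by 0.87 (adjusted p = 0.00092), and Slc6a8 on its other side had a log2 fold change of 0.09 (adjusted p = 0.65). The nearest tested genes to Dcn and Lum were Btg1, which rose by 0.33 (adjusted p = 0.0054), and Atp2b1, with a log2 fold change of -0.18 (adjusted p = 0.20), both at least 857 kb away.

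Other genes of the same families and pathways were taken from 8 lists of 114 genes, of which 53 were tested. By edgeR's adjusted p alone, 23 fell, 12 rose and 18 did not pass, where 26.3% of all tested genes were lower and 26.3% higher. The median log2 fold change was -0.17, beside -0.01 over all tested genes. With sg-kiaa1522 library 2 left out, 7 in place of 12 rose, in part because Thbs2, Ddr2 and Mmp3 were then under the filter of more than 500 counts. Past the fold threshold, 8 were lower and 5 higher, where 4.34% of all tested genes were lower and 2.74% higher. The counts of each list below, most of them of few genes, stand beside these same shares, and nothing is called particular to a list.

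Relatives of the 9 genes mostly had too few counts to be tested. Among the other SPARC family genes, 1 of 4 was tested: Fstl1, a secreted follistatin-like glycoprotein, fell from 371, 347 and 363 CPM to 185, 167 and 182 CPM, with -1.02 as its log2 fold change (standard error 0.0633, edgeR adjusted p = 4.3e-05). Spock1 and Spock3 were at 0 counts in all 6 libraries. Of 12 other small leucine-rich proteoglycans, 2 were tested. Podnl1, which encodes a podocan-like member, fell from 55.8, 62.7 and 63.3 CPM to 25.7, 26.3 and 23.1 CPM (log2 fold change -1.27, adjusted p = 6.9e-05 from edgeR), and the groups were well apart. Tsku, the tsukushi gene, overlapped between groups, with a log2 fold change of 0.14 (adjusted p = 0.64 from edgeR). Kera, Epyc and Chad were at 0 counts in every library.

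Enzymes that build the sugar chains changed in either direction or did not pass. Of 13 tested genes for chondroitin and dermatan sulfate chains, 4 fell, 2 rose and 7 did not pass, beside 26.3% in each direction over all tested genes. The chondroitin sulfotransferase gene Chst12 fell from 105 ± 9.79 to 43.0 ± 5.60 CPM and Chst15 from 42.7 ± 2.19 to 19.4 ± 1.91 CPM (SD, n = 3 each, adjusted p = 1.4e-04 and 1.3e-04 from edgeR). Of 4 tested genes for keratan sulfate chains, 2 fell and 1 rose, none past the fold threshold. The one with the most counts, the galactosyltransferase gene B4galt1, fell by 0.60 (adjusted p = 3.1e-04 from edgeR).

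Among the collagens that bind these proteins, 3 of the 4 tested genes fell and none rose, beside 26.3% in each direction over all tested genes. Col1a2, of type I collagen, went from 424 ± 8.11 to 154 ± 9.91 CPM (log2 fold change -1.46, standard error 0.0649, adjusted p = 1.5e-05 from edgeR), and Col5a1, of type V collagen, from 147 ± 3.01 to 49.7 ± 6.95 CPM (log2 fold change -1.57, adjusted p = 4.8e-05 from edgeR). Of 9 other matricellular genes tested, 3 fell, 3 rose and 3 did not pass. Ctgf, the connective tissue growth factor gene, fell by 1.87 on the log2 scale (adjusted p = 1.5e-04 from edgeR). Of the other tested members of its CCN family, Cyr61 fell by 0.81 and Wisp1 by 0.93, and Wisp2 rose by 1.70 (adjusted p = 6.8e-05, 0.0022 and 7.2e-05 from edgeR).

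Of 14 tested growth factor and receptor genes, 6 fell and 4 rose, again beside 26.3% in each direction over all tested genes. Bmp4, a ligand of the BMP pathway on which SMOC proteins act, fell from 233 ± 14.8 to 102 ± 6.00 CPM (log2 fold change -1.20, standard error 0.0742, adjusted p = 4.3e-05 from edgeR). The collagen receptor gene Ddr2 had 6, 1 and 5 counts in sg-con and 165, 243 and 261 counts in sg-kiaa1522, and rose by 5.90 on the log2 scale (standard error 0.438, adjusted p = 2.4e-05 from edgeR). Of 6 tested protease genes, 3 fell and 2 rose. Both that rose are matrix metalloproteinases: Mmp13, a collagenase, from 28.9 ± 3.67 to 614 ± 41.5 CPM, and Mmp3, stromelysin, from 0.687 ± 0.0816 to 10.1 ± 2.17 CPM (log2 fold changes 4.41 and 3.86, adjusted p = 3.1e-06 and 3.9e-05 from edgeR). Mmp3 had 501 counts in all, so leaving out any 1 library put it under the filter and it could not then be tested, and the same held for Ddr2 without sg-kiaa1522 library 2 or 3.

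**Figure D4:**
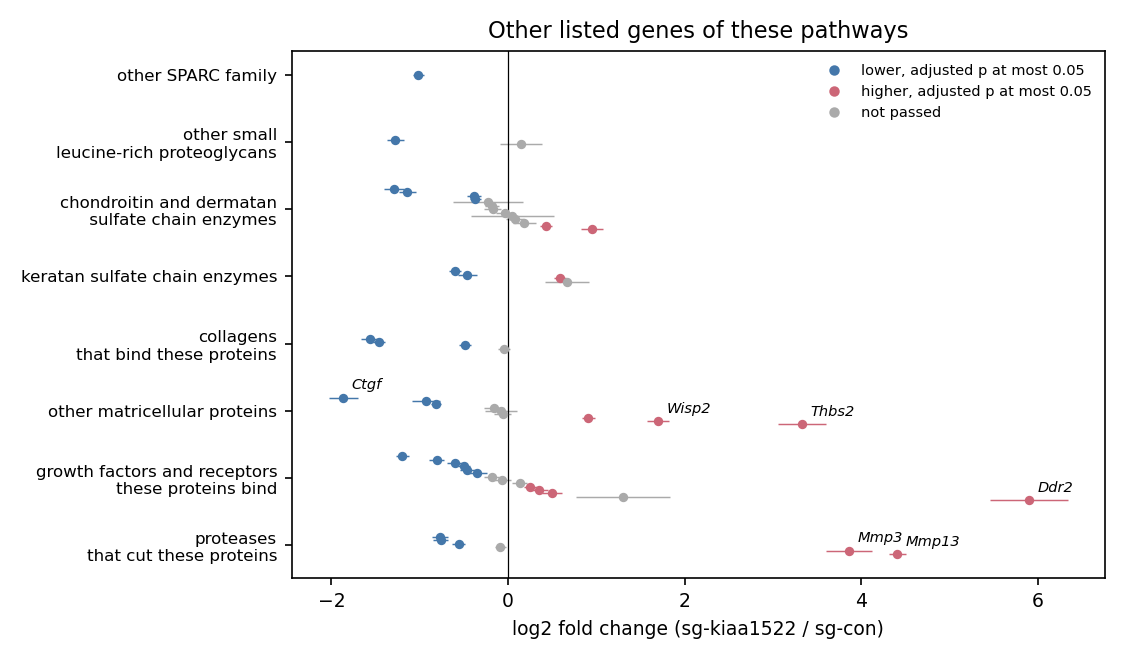
Points give the log2 fold change with its standard error for the 53 tested genes of the 8 lists, blue where lower and red where higher at an adjusted p of at most 0.05, and grey otherwise. In all, 23 are blue and 12 red, and the largest rise is Ddr2 at 5.90 and the largest fall Ctgf at -1.87.

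The genes whose levels followed the same course over the 6 libraries were ranked by Pearson's r of log2 CPM, where the difference between the groups sets most of the likeness and r above 0.95 was reached by 1166 genes for Smoc1, 1137 for Smoc2 and 688 for Fmod. For Smoc1, these were Rab12 (r = 0.99975), Utp14a (0.99926) and Emp2 (0.99915). For Smoc2, they were Mcpt1 (0.99927), P4ha3 (0.99922) and Col5a1 (0.99914), and for Fmod, Cadm4 (0.99904), Ccl2 (0.99874) and Fkbp14 (0.99809). These values describe the 6 libraries only.

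Several of the 9 genes are known from fibroblasts and other stromal cells, so markers of such cells are given beside them. Of 9 fibroblast markers, 5 were above the floor in at least 1 library, and their sum was 467 to 486 CPM in sg-con and 167 to 198 CPM in sg-kiaa1522, most of it Col1a2. Besides Pdgfrb, the rest were low. Col1a1 had 105, 126 and 137 counts in sg-con and 20, 29 and 34 in sg-kiaa1522. Pdgfra had at most 7 counts in a library and Col3a1 at most 5. Thy1 and Tcf21 were at 0 in every library. Of 6 chondrocyte and tendon markers, 3 were above the floor, with a sum of 40.6 to 49 CPM in sg-con and 46.1 to 53.4 CPM in sg-kiaa1522, and Matn1 and Tnmd were at 0. Most of that sum was 2 genes that differed in direction: Acan, the aggrecan gene, rose from 7.99 ± 0.449 to 27.6 ± 5.32 CPM, and Scx, a tendon transcription factor gene, fell from 36.9 ± 4.67 to 20.7 ± 1.21 CPM (SD, n = 3 each, adjusted p = 1.2e-04 and 8.4e-04 from edgeR). Of 5 smooth muscle and pericyte markers, 2 were above the floor, with a sum of 1.32 to 1.84 CPM in sg-con and 0.942 to 2.31 CPM in sg-kiaa1522. Of 5 endothelial markers, 4 were above the floor, with a sum of 0.809 to 1.66 CPM in sg-con and 0.942 to 1.24 CPM in sg-kiaa1522, and Emcn was at 0. Of 6 leukocyte markers, 2 were above the floor, with a sum of 1.4 to 2.12 CPM in sg-con and 10.3 to 13 CPM in sg-kiaa1522. Most of that sum was Cd68, which rose, and Adgre1 and Cd3e were at 0. Ptprc, the other marker above the floor, did not rise with it: it had 14, 1 and 6 counts in sg-con and 1, 2 and 2 in sg-kiaa1522. The part of such cells in the levels of the 9 genes was not tested.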

How the data were processed

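RNA of 6 libraries of cultured 889 cells was measured by RNA-seq. The authors used Seqtk to trim adaptors and remove rRNA reads, mapped the rest to GRCm38 with HISAT2 2.0.4 and counted uniquely mapped fragments with StringTie 1.3.0 (per the study's methods and the submitters' processing notes), and deposited whole-number counts per gene, not normalized. The annotation release and the strand setting are not given in the sources used here.

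Groups came from the sample titles. The 10046 genes whose counts summed to over 500 in the 6 libraries (99.5% of each library's counts) were scaled by TMM and fitted with edgeR 4.0.16 in R 4.3.3 (quasi-likelihood test, Benjamini-Hochberg adjustment over all of them), and called where the adjusted p was 0.05 or less and the log2 fold change was 1 or more in size. Positions and exon lengths came from GENCODE M21 (GRCm38), to which 34267 of 34745 genes were matched. The length of a gene was that of the exons of all its annotated transcripts, merged. The fit was also tested on simulated data, whose outcome is not given here, so no result rests on it. Within a group, libraries differed by more than counting noise (chi-square per degree of freedom at least 12.3), so none was treated as a second sequencing run of another. The largest values were those of sg-con library 1 with libraries 2 and 3, at 23.44 and 30.65, against 12.6 between sg-con libraries 2 and 3. These values cannot tell separate cultures from separate preparations of 1 culture, since both would exceed counting noise.

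The 9 genes and the lists were chosen with earlier results of these data known. Besides the 9 genes and C77080, the genes named were, by rule, at most the 4 largest calls of each list (or, with none, the one with the most counts), the nearest tested gene on either side of each of the 9, and the 3 most alike to Smoc1, Smoc2 and Fmod. Alternatives were RLE factors, library size alone, DESeq2 1.42.0, other filters and thresholds, the replicate block and leaving out each library. Acan, Scx, Cdh1, Napsa, Nkx2-1, Sftpc, Pdgfrb, Col1a1, Cyr61, Wisp1 and the genes named for 0 or few counts were chosen after their values were seen. Tsku, Krt8, Krt18, Cd68 and Ptprc were also named outside the rule.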

Additional observations from a re-analysis of the deposited data

How the results depend on the processing

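The fits with RLE factors, library size alone, DESeq2 or the replicate block moved no count of calls by over 1.5 times. Calls grew with weaker filters or thresholds, by construction of the number of genes tested or passed: against 436 lower and 275 higher genes, there were 941 and 767 with every gene of at least 1 count, 812 and 607 with edgeR's filterByExpr, and 2639 and 2638 with no fold threshold. Leaving out 1 library in turn gave 7 to 12 listed genes higher, with 7 without sg-kiaa1522 library 2. The log2 fold changes lay between 6.45 and 6.84 for Smoc1, -4.18 and -3.67 for Smoc2, and -2.78 and -2.20 for Prelp over 12 alternatives, and between -5.50 and -4.01 for Fmod over 9, since leaving out any sg-con library put Fmod under the filter. That of Slc6a8, not called, was -0.0062 without sg-con library 3, -0.0042 without sg-kiaa1522 library 3, and up to 0.28 without 1 library (sg-con library 2). In 2 alternatives chosen after the data were seen, the log2 ratio of the SMOC sum was 0.58 in TPM in place of -0.43 in CPM, and the Sparcl1 ratio lay between 1.15 and 4.19 without 1 library. TPM divides by exon length and also leaves out the TMM factors. Sparc alone had 730 CPM in sg-con and 716 in sg-kiaa1522, but 494 and 517 TPM. With the replicate number as a block, the values were 6.64 for Smoc1, -3.88 for Smoc2, -0.03 for Sparc, -4.55 for Fmod and -2.43 for Prelp, with 434 genes lower and 285 higher. Libraries of the same number did not deviate together (correlations -0.21, -0.051 and -0.17), so they share only a number. Depth limits Smoc1 in sg-con, Fmod in sg-kiaa1522, and Sparcl1, Dcn and Lum throughout.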
